A study of Mus musculus with 18 samples.

Results

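*Slc7a7* and the genes that carry or use cationic amino acids were followed in cultured mouse macrophages that lack *Slc7a7* in the myeloid lineage and were loaded with modified LDL. The set was chosen by gene symbol and holds 10 of the 31053 genes listed: the transporter subunits *Slc7a7*, *Slc7a6* and *Slc3a2*, the carriers *Slc7a1* and *Slc7a2*, and the enzymes *Arg1*, *Arg2*, *Nos2*, *Ass1* and *Odc1*. The data were bulk RNA-Seq counts from bone marrow-derived macrophages of 3 *Slc7a7*-/- mice (KO) and 3 *Slc7a7*+/+ mice (WT), all 12 weeks old and on a C57Bl/6J background. The KO mice lost the gene through LysM-Cre, a recombinase expressed from the *Lyz2* locus in myeloid cells, and which exons it removes is not given in the sources used here. Cells of each mouse, 100000 per culture, were kept for 24 h in control medium with vehicle, with acetylated LDL (Ac-LDL, 50 µg/mL) or with oxidized LDL (Ox-LDL, 100 µg/mL), which gave 6 groups of 3 libraries and 18 libraries in all. Bone marrow cells of both genotypes had been grown into macrophages with M-CSF or with L-cell conditioned medium, and the labels do not say which library had which.

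Slc7a7 (y+LAT1) and Slc7a6 (y+LAT2) are light chains that reach the plasma membrane only when bound to the heavy chain Slc3a2 (4F2hc). The pairs export arginine, lysine and ornithine in exchange for neutral amino acids and sodium, whereas Slc7a1 (CAT1) and Slc7a2 (CAT2) take cationic amino acids up without such an exchange. In macrophages, arginine is split into ornithine and urea by arginases, is turned into nitric oxide and citrulline by Nos2, and can be rebuilt from citrulline by Ass1 and Asl. Inherited loss of SLC7A7 in humans causes lysinuric protein intolerance, a disease in which macrophages are among the affected cells.

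Total counts per library ran from 1043492 to 1768816 (median 1466145), so members at a few CPM (counts scaled to the total of their library) rest on few reads. Of the 10 macrophage markers (among them *Adgre1*, *Csf1r* and *Cd68*), all 10 were detected, and their summed level was 12788 to 36084 CPM. Lymphoid markers summed to at most 1.30 CPM, erythroid markers to at most 2.19, dendritic markers to at most 4.62, mast cell and basophil markers to at most 1.96, stromal markers to at most 26.9, osteoclast markers to 9.83 to 38.0 and neutrophil markers to 25.5 to 252 CPM, with *Ly6g* at 0. The scaling was TMM throughout. The labels number all WT libraries before all KO libraries and do not say what the number stands for.

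RefSeq start-site windows (GRCm38.p6, 250 bases before to 50 bases after the start) were at hand for 6 of the 10 members. Those of *Slc7a7* and *Ass1* are shown because these were the 2 members that passed a test, the former with genotype and the latter with LDL. In the *Slc7a7* window at chr14:54417895-54418194 (minus strand, 1 of 5 windows of the gene), the capitals mark both matches to TGATGNAAN, the letters of the C/EBP-ATF response element. In the *Ass1* window at chr2:31470020-31470319 (plus strand), they mark the E-box CACGTG.
*Slc7a7*: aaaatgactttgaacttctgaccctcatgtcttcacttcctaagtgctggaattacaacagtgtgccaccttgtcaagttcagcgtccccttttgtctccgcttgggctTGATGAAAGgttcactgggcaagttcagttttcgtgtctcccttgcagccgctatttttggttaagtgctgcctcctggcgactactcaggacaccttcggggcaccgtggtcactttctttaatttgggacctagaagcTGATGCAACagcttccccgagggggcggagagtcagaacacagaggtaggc
*Ass1*: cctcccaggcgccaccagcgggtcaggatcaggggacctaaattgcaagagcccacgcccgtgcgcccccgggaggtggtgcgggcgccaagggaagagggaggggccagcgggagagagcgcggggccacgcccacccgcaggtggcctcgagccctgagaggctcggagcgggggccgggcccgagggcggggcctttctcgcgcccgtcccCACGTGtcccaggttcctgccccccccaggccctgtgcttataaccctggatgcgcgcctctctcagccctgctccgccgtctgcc
The matches in *Slc7a7* begin at positions -141 and -1 from the start site, and the match in *Ass1* begins at -36 and reads alike on both strands. The *Slc7a7* window shown was the one with the most matches, and it lies upstream of the gene span given below. Of the other windows of *Slc7a7*, the one at chr14:54417653-54417952 overlaps the window shown. It holds 1 match, which is the same TGATGCAAC site marked above, and the rest hold 0. Of all 32851 RefSeq windows of this length, searched on both strands, TGATGNAAN was found in 3.95% and CACGTG in 7.15%. These shares are per window, whereas *Slc7a7* had 5 windows. TGACNNNGC, the antioxidant response element, was found in 12.4% of windows and once in a window of *Slc7a1* and of *Slc7a6*. The DR4 repeat bound by LXR was found in 0.0152% and in no window of a member. The motifs were chosen after the first letters of the windows had been seen.

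Loss of *Slc7a7* transcript was the only genotype difference among the members that passed the test in any comparison. *Slc7a7* (ENSMUSG00000000958, chr14:54369442-54417780, GRCm38) was 71.2% lower in KO than in WT mice when the 3 media of a mouse were summed. The summed level was 22.9, 20.8 and 24.9 CPM in WT mice 1 to 3 and 7.77, 5.54 and 6.41 CPM in KO mice 1 to 3. Every KO mouse lay below every WT mouse, as for 4.57% of all genes tested, but transcript remained in each. The log2 fold change was -1.80 (SE 0.19, 95% interval -2.22 to -1.38, adjusted p = 0.0112 by edgeR's quasi-likelihood test), and *Slc7a7* was the 1 gene called of 12673 tested (0.00789%). The call was lost without WT mouse 3 (adjusted p = 0.131), without KO mouse 2 (0.134) and without KO mouse 3 (0.120), while the fold change stayed between -1.93 and -1.69. A two-sided exact permutation test of the 3 against 3 levels gave p = 0.10, the smallest p this design allows.

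In control medium, *Slc7a7* was at 11.1, 12.6 and 21.1 CPM in the WT libraries (12, 18 and 29 counts). It was at 10.2, 4.33 and 5.16 CPM in the KO libraries (17, 7 and 8 counts), so that the highest KO library came close to the lowest WT library. With Ac-LDL the levels were 28.5, 23.6 and 23.8 CPM in WT and 2.36, 2.22 and 5.22 CPM in KO, the latter from 3, 4 and 9 counts. The gap between the genotypes was widest here. With Ox-LDL they were 28.7, 25.9 and 29.3 CPM in WT and 10.1, 10.9 and 8.67 CPM in KO. The KO mean was thus 56.0% lower in control medium, 87.1% lower with Ac-LDL and 64.6% lower with Ox-LDL, and the groups did not overlap in any medium. Of all tested genes, 4.39%, 4.78% and 4.8% lay lower in KO without overlap in these media. The exact permutation test gave p = 0.10 in each.

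Of the 8 members tested, *Slc7a7* alone passed with Ac-LDL (log2 fold change -2.89, SE 0.36, adjusted p = 0.000472), where 0.0163% of the tested genes were called. By either tool *Slc7a7* and *Slc7a1* were the 2 members with an unadjusted p under 0.05 there, the latter at a log2 fold change of 0.68 (95% interval 0.076 to 1.28, adjusted p = 0.990 by edgeR). In control medium 0 of 8 members were called by edgeR and by DESeq2, beside 0.00814% of all genes, and 1 member, *Slc7a7*, had an unadjusted p under 0.05 with either tool (log2 fold change -1.18, SE 0.34, adjusted p = 1 by edgeR). With Ox-LDL 0 of 8 were called by either tool, again beside 0.00814%, and *Slc7a7* was again the 1 member with an unadjusted p under 0.05 (log2 fold change -1.50, SE 0.30, adjusted p = 0.276 by edgeR). In the fit of all genes with at least 1 count, it passed with Ox-LDL (adjusted p = 0.00303).

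**Figure D1:**
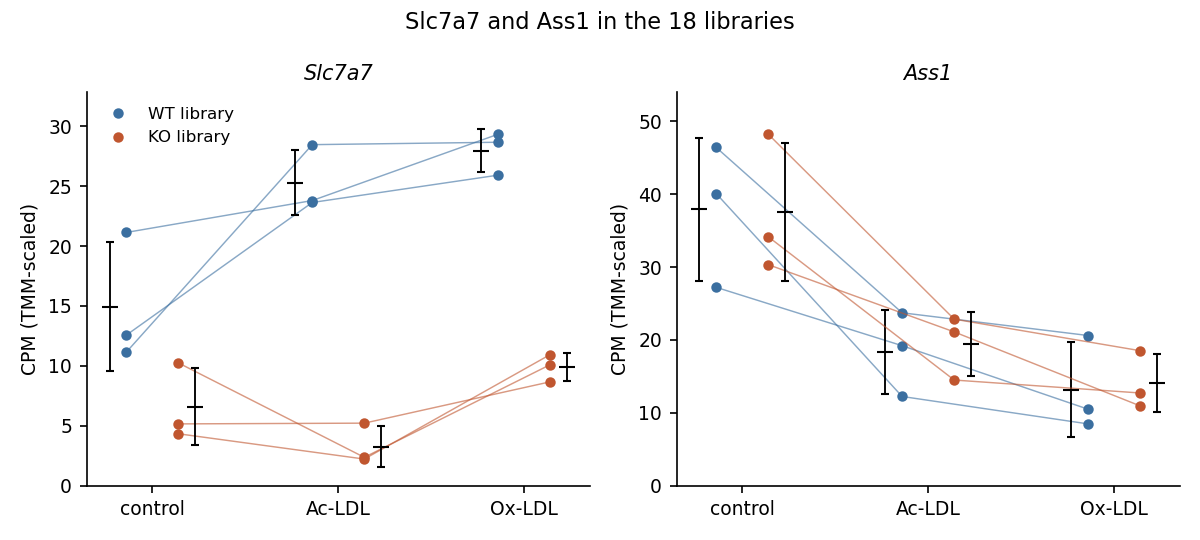
*Slc7a7* (left) and *Ass1* (right) in CPM by medium (control, Ac-LDL, Ox-LDL); points are libraries, lines join the libraries of a mouse, and black bars are the mean ± SD of 3 libraries. KO libraries of *Slc7a7* lie between 2.22 and 10.9 CPM and below all WT libraries of the same medium, whereas *Ass1* falls with each LDL in both genotypes.

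Some other levels stood lower in KO libraries beside *Slc7a7*. *Lyz2*, the locus that carries the Cre, had group means of 21148 to 25516 CPM in WT and of 8971 to 13234 CPM in KO, and it passed as lower in KO with Ac-LDL (adjusted p = 0.0149) and with Ox-LDL (0.0263). It did not pass in control medium (log2 fold change -0.87, adjusted p = 0.562) or summed per mouse (-1.08, adjusted p = 0.980). Without *Lyz2*, the other 9 macrophage markers summed to 3517 to 7289 CPM in WT and to 4269 to 7411 CPM in KO libraries, which overlap. The 10 neutrophil markers overlapped between WT and KO in control medium (73.6 to 127 and 52.0 to 141 CPM in sum). They did not overlap with Ac-LDL (78.9 to 216 in WT and 25.5 to 64.6 CPM in KO) or with Ox-LDL (144 to 252 and 62.9 to 114 CPM), and these sums were not tested. The part of these levels in the *Slc7a7* difference was not tested, and in bulk RNA fewer cells of a type and less RNA per cell cannot be told apart. For *Lyz2*, the part of the Cre carried at this locus in its lower level was not tested either. Whether the WT mice carried the Cre is not given in the sources used here. *Oxa1l*, a gene of mitochondrial membrane insertion on the opposite strand that overlaps the 3' end of *Slc7a7* and shares 5.91% of its 31-base words, differed by a log2 fold change of 0.018 between genotypes (SE 0.13, adjusted p = 0.995).

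With LDL, *Slc7a7* was higher in WT cells, but no LDL comparison of it passed over all genes in the fit without a term for the mouse. WT libraries with Ac-LDL and with Ox-LDL all lay above the WT control libraries, as did 5.5% and 5.67% of all genes. The log2 fold changes were 0.73 (SE 0.29, adjusted p = 0.519) for Ac-LDL and 0.88 (SE 0.29, adjusted p = 0.179) for Ox-LDL. In KO cells they were -0.97 (SE 0.43, adjusted p = 0.585) and 0.57 (SE 0.36, adjusted p = 0.583). With the mouse as replicate block, edgeR's adjusted p was 0.250 for Ac-LDL and 0.0620 for Ox-LDL in WT, and 0.384 and 0.436 in KO. Over both genotypes *Slc7a7* was higher with Ox-LDL in 5 of 6 mice (log2 fold change 0.73, SE 0.23, adjusted p = 0.0690), which passed with the mouse as replicate block (0.0288), with scaling by library size (0.0472), without WT control library 3 (0.0241) and without KO control library 1 (0.0185). In the same WT libraries, the summed neutrophil markers were also higher with Ox-LDL than in control medium without overlap (the ranges above), whereas those with Ac-LDL overlapped the controls, and their part in the level of *Slc7a7* was not tested. For Ac-LDL, the response of *Slc7a7* differed between KO and WT by -1.71 on the log2 scale (SE 0.52, 95% interval -2.78 to -0.63), which did not pass over all genes (adjusted p = 0.9999). In the tests of a genotype difference in the response, edgeR called 0 genes (0%) for either LDL, with 327 genes for Ac-LDL and 338 for Ox-LDL at an unadjusted p under 0.05, and DESeq2 called 1 gene for Ac-LDL and 0 for Ox-LDL, none of them a member. *Slc7a7* with Ac-LDL was the 1 member with an unadjusted p under 0.05. For Ox-LDL the difference was -0.32 (95% interval -1.28 to 0.65).

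*Slc7a6* (chr8:106168857-106198706), the other y+LAT light chain, did not differ between the genotypes beyond its spread. Summed per mouse, it was at 13.9, 17.6 and 14.2 CPM in WT and at 12.9, 20.7 and 15.4 CPM in KO. The mice overlapped, and the log2 fold change of 0.10 had a 95% interval of -0.35 to 0.55 (adjusted p = 0.990). With LDL, the log2 fold change over both genotypes was 0.028 (95% interval -0.44 to 0.49) for Ac-LDL and 0.23 (95% interval -0.23 to 0.69) for Ox-LDL. Per kilobase of exons, *Slc7a7* made up 66.4% ± 8.09 (SD, n = 9) of the summed level of both light chains in WT libraries and 34.5% ± 14.4 in KO libraries. The share ran from 53.0% to 80.5% in WT and from 12.7% to 58.0% in KO, with the highest KO value in control library 1. This share restates the levels of both genes and was not tested.

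*Slc3a2* (chr19:8706882-8723369), the heavy chain, was the most abundant member per kilobase of exons in all 18 libraries, and its own level ran from 179 to 258 CPM. Summed per mouse, it was at 232, 203 and 219 CPM in WT and at 227, 189 and 198 CPM in KO, with overlap (log2 fold change -0.095, 95% interval -0.34 to 0.15, adjusted p = 0.980). With Ac-LDL it was lower in 6 of 6 mice, as were 5.9% of all genes. In WT, control libraries were at 258, 207 and 241 CPM and Ac-LDL libraries at 202, 194 and 195 CPM, without overlap. Of all genes, 5.48% were lower without overlap in this comparison. In KO, control libraries were at 231, 203 and 205 CPM and Ac-LDL libraries at 221, 179 and 187 CPM, which overlapped. The difference was small and did not pass (log2 fold change -0.19 over both genotypes, SE 0.087, adjusted p = 0.385). Ox-LDL gave -0.076 (95% interval -0.26 to 0.10).

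*Slc7a1* (chr5:148327410-148399904), which encodes the widely expressed arginine importer CAT1, was higher in 2 of 3 KO mice. Its summed level was 40.5, 39.6 and 25.8 CPM in WT and 34.5, 54.8 and 55.7 CPM in KO. KO mouse 1 lay below 2 of the WT mice, and WT mouse 3 was low through its control library at 13.8 CPM, beside 42.7 and 44.0 CPM in the other two. The log2 fold change was 0.47 (95% interval 0.0096 to 0.92), with an unadjusted p under 0.05, and did not pass (adjusted p = 0.980). It was 0.28 without WT mouse 3. Neither LDL moved *Slc7a1* beyond its spread (log2 fold change 0.027, 95% interval -0.40 to 0.46, for Ac-LDL and 0.091, -0.33 to 0.52, for Ox-LDL).

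*Slc7a2* (chr8:40862396-40922308), which encodes CAT2, the carrier that activated macrophages are known to raise, was low in every library. It ranged from 3.37 to 13.1 CPM (4 to 18 counts). The genotypes differed by a log2 fold change of -0.30 (95% interval -0.92 to 0.32), Ac-LDL by 0.19 (-0.48 to 0.85) and Ox-LDL by -0.19 (-0.89 to 0.51). Changes within these intervals were not excluded.

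**Figure D2:**
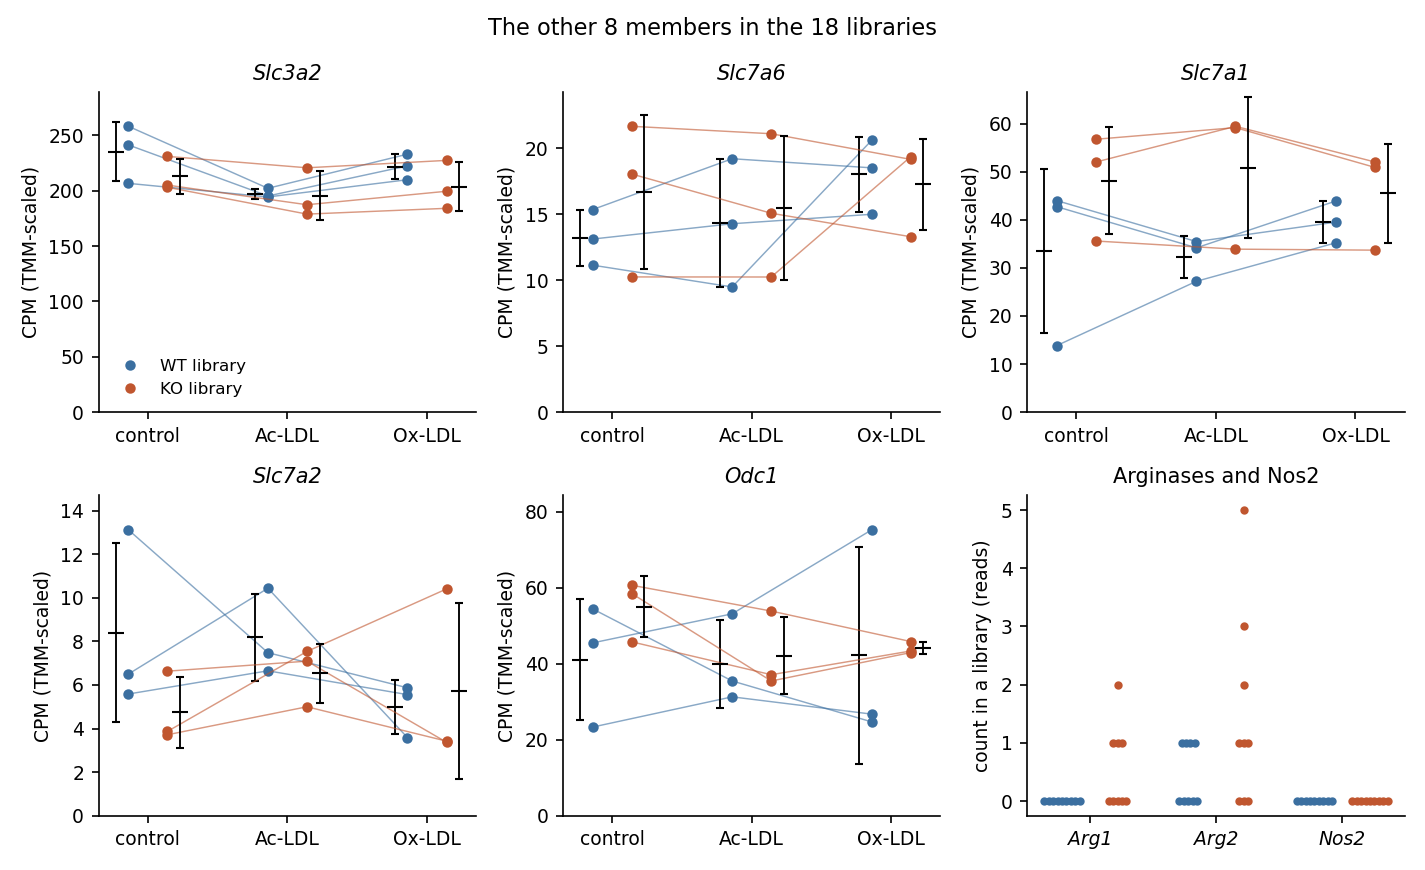
The other 8 members by library: 5 panels in CPM by medium, with lines joining the libraries of a mouse and black bars for the mean ± SD of 3 libraries, and a panel of raw counts for *Arg1*, *Arg2* and *Nos2* over 9 WT and 9 KO libraries. WT and KO overlap in each CPM panel, and the counts of the last panel reach at most 5.

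Of the genes that use arginine, *Ass1* fell with both modified LDLs, in WT and in KO mice. *Ass1* (ENSMUSG00000076441, chr2:31470207-31520672) encodes argininosuccinate synthase, which joins citrulline and aspartate on the way back to arginine. In WT cells it was at 46.4, 27.2 and 40.1 CPM in control medium, at 23.7, 19.2 and 12.2 CPM with Ac-LDL and at 20.6, 10.5 and 8.48 CPM with Ox-LDL. In KO cells it was at 48.2, 30.3 and 34.2 CPM, at 22.9, 21.1 and 14.5 CPM and at 18.5, 10.9 and 12.7 CPM in the same order of media. Every LDL library lay below every control library of its genotype. Of all genes, 5.48% (Ac-LDL, WT), 9.37% (Ac-LDL, KO), 6.17% (Ox-LDL, WT) and 11.6% (Ox-LDL, KO) were lower without overlap. The 5 osteoclast markers (*Acp5*, *Ctsk*, *Dcstamp*, *Ocstamp* and *Calcr*) were lower with LDL in the same libraries. In WT they summed to 27.9 to 32.5 CPM in control medium, 18.4 to 27.5 CPM with Ac-LDL and 9.88 to 26.9 CPM with Ox-LDL. In KO they summed to 34.97 to 38.03, 17.34 to 22.03 and 9.828 to 15.997 CPM in that order. No LDL library overlapped the controls of its genotype in this sum, *Calcr* had a median of 0 CPM over all libraries, and the part of these markers in the fall of *Ass1* was not tested.

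Over both genotypes, *Ass1* was 2.01-fold lower with Ac-LDL (log2 fold change -1.01, SE 0.21, 95% interval -1.44 to -0.57, adjusted p = 0.00793) and 2.83-fold lower with Ox-LDL (-1.50, SE 0.22, 95% interval -1.96 to -1.04, adjusted p = 7.40e-05). It was the 1 of 8 tested members called for each LDL, beside 2% of all genes for Ac-LDL and 5.39% for Ox-LDL. Both falls were seen in 6 of 6 mice, as in 5.9% and 7.46% of all genes. Within mice, the change in log2 CPM lay between -1.61 and -0.47 for Ac-LDL and between -2.07 and -1.12 for Ox-LDL. Both calls held without any 1 library and in each of the 6 other settings tried. The LDLs were given at different doses, and they were not compared with each other.

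Within a genotype, the Ox-LDL fall of *Ass1* passed in WT (log2 fold change -1.56, SE 0.32, adjusted p = 0.00818, beside 1.34% of all genes) and in KO (-1.44, SE 0.31, adjusted p = 0.00843, beside 2.32%). The WT call was lost without WT Ox-LDL library 3 (adjusted p = 0.0839) and in a fit of the compared libraries alone (0.0870). The KO call was lost without KO control library 1 (0.0823) and without KO Ox-LDL libraries 2 (0.0782) or 3 (0.0735). The Ac-LDL fall was -1.06 in WT (SE 0.31, adjusted p = 0.183) and -0.96 in KO (SE 0.29, adjusted p = 0.211). By edgeR and by DESeq2, 0 of 8 members were called in these Ac-LDL comparisons, beside 0.472% and 0.521% of all genes. With edgeR, 2 members in WT (*Slc7a7* and *Ass1*) and 3 in KO (*Slc7a7*, *Arg2* and *Ass1*) had an unadjusted p under 0.05. Of all genes, 7.33% in WT and 7.53% in KO were under it. DESeq2 gave the same 2 members in WT and 1, *Ass1*, in KO. *Arg2* rests on 9 counts in the KO control libraries and 1 in the KO Ac-LDL libraries. With the mouse as replicate block, *Ass1* passed for Ac-LDL in WT (0.00836) and in KO (0.0124). The response of *Ass1* differed between KO and WT by 0.10 on the log2 scale for Ac-LDL (95% interval -0.78 to 0.97) and by 0.12 for Ox-LDL (95% interval -0.81 to 1.05).

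Genotype did not move *Ass1* beyond its spread: summed per mouse it was at 30.3, 18.5 and 19.7 CPM in WT and at 31.8, 21.1 and 20.03 CPM in KO (log2 fold change 0.10, 95% interval -0.40 to 0.60, adjusted p = 0.990). In each genotype, mouse 1 was the highest. Of the 31-base words of *Ass1* transcripts, 43.1% also occur in the processed pseudogene *Gm5424* on chromosome 10. No gene of that symbol is among those listed, so how many of its reads were counted for *Ass1* is uncertain.

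**Figure D3:**
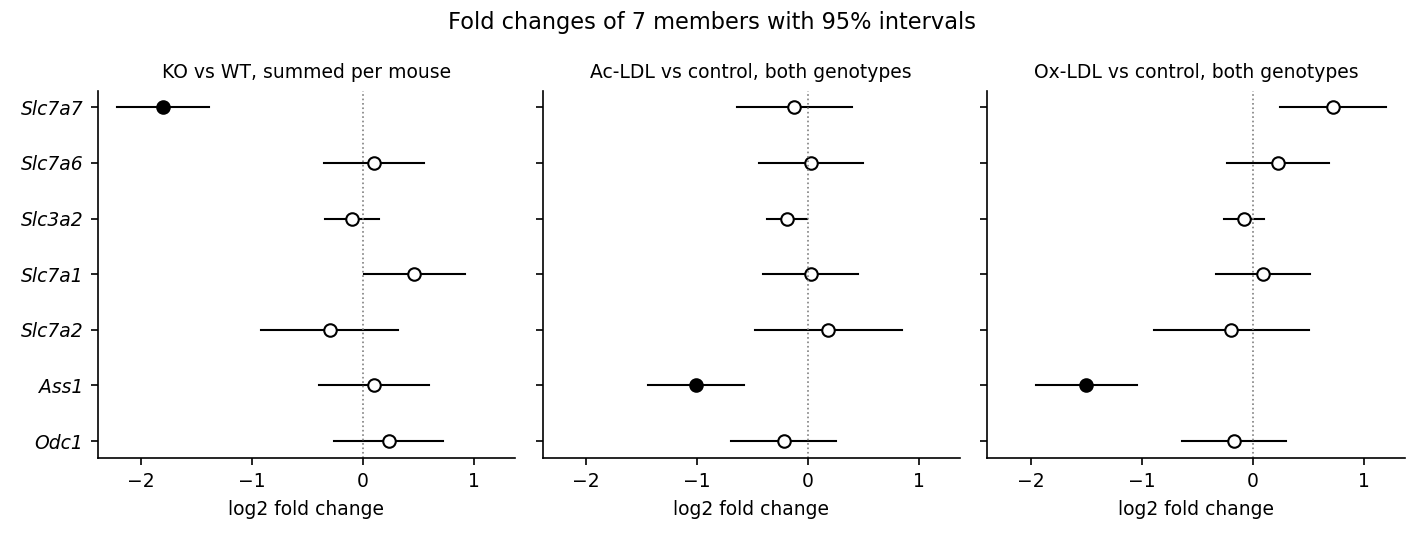
Log2 fold change (x axis) of 7 members for KO against WT over the per-mouse sums (left), Ac-LDL against control (middle) and Ox-LDL against control (right), the last 2 over both genotypes; lines are 95% intervals and filled points passed an adjusted p of 0.05. *Slc7a7* is filled at -1.80 for genotype and *Ass1* at -1.01 and -1.50 for the LDLs, and the open points lie between -0.30 and 0.73.

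*Odc1* (chr12:17544794-17551505), which makes putrescine from ornithine and so opens polyamine synthesis, spread widely among libraries of a group. In WT cells with Ox-LDL it was at 75.3, 24.7 and 26.7 CPM, and over all libraries at 23.3 to 75.3 CPM. The log2 fold change was 0.23 for genotype (95% interval -0.26 to 0.72), -0.22 for Ac-LDL (-0.69 to 0.26) and -0.17 for Ox-LDL (-0.64 to 0.30). None passed. Of its 31-base words, 31.3% also occur in other genes, mostly processed pseudogenes such as *Gm7993*. No gene of that symbol is listed either, so the counts of *Odc1* are uncertain in the same way as those of *Ass1*.

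The arginases and the inducible nitric oxide synthase were at or near 0 in these cultures. *Nos2* (chr11:78920787-78960254) had 0 counts in all 18 libraries, where the limit that a count of 0 allows (3 counts) is 1.70 to 2.87 CPM in a library. *Arg1* (chr10:24915221-24927484), the cytosolic arginase of alternatively activated macrophages, had 5 counts in all, from 4 KO libraries: 1 and 2 counts in Ac-LDL libraries 2 and 3, and 1 count each in Ox-LDL libraries 1 and 3. *Arg2* (chr12:79130777-79156301), the mitochondrial arginase, had 17 counts over 10 libraries, of which 9 came from the KO control libraries (5, 1 and 3 counts). No library exceeded 5 counts of an arginase. *Arg1* and *Nos2* fell under the filter on low counts, *Arg2* passed it but was called in no comparison, and no fold change is given for genes at this level. Of the 31-base words of *Arg2*, 23.6% are shared with the overlapping genes *Vti1b* and *Gm48780* on the opposite strand, read on either strand.

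Levels of different members were compared per kilobase of merged exons. *Slc3a2* came highest, at a mean of 59.8 CPM per kb over the 18 libraries, followed by *Odc1* at 12.9, *Ass1* at 9.71, *Slc7a7* at 4.42, *Slc7a1* at 3.61 and *Slc7a6* at 3.46 CPM per kb. *Slc7a2* was at 0.704, *Arg2* at 0.438, *Arg1* at 0.0782 and *Nos2* at 0 CPM per kb. Of neighbours in this order, *Slc3a2* and *Odc1* did not overlap, nor did *Slc7a6* and *Slc7a2*. All other neighbours overlapped in their range over the 18 libraries, a range that spans both genotypes and all media. Within a group, some of them parted. In WT cells with Ox-LDL, *Slc7a7* was at 7.82 to 8.85 and *Slc7a1* at 3.05 to 3.81 CPM per kb. In KO cells with Ox-LDL, *Odc1* was at 12.6 to 13.5 and *Ass1* at 4.53 to 7.67 CPM per kb. *Slc7a7* took its place through WT libraries: it was at 8.44 ± 0.546 CPM per kb in WT cells with Ox-LDL and at 0.986 ± 0.510 in KO cells with Ac-LDL (SD, n = 3 each). The order was the same with the length of the longest transcript, with scaling by library size and without any 1 library.

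**Figure D4:**
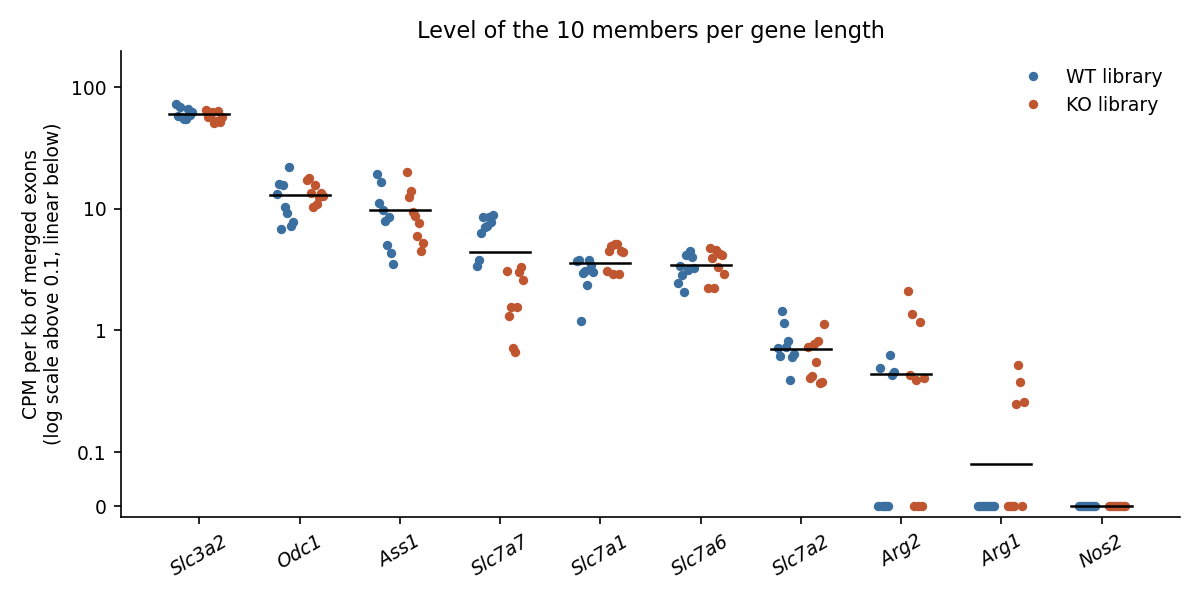
Level of each member in CPM per kb of merged exons (y axis, log scale above 0.1 and linear below), in order of the mean over 18 libraries (black line); points are libraries, blue for WT and red for KO. *Slc3a2* stands above all others at 50.7 to 73.1 CPM per kb, and *Slc7a7* is the member whose WT and KO points part.

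Around the members, 66 genes of 6 lists (other carriers of the SLC7 family, lysosomal and mitochondrial carriers, the urea cycle and proline, polyamines, nitric oxide, and arginine in protein) were read in the same fits, and 49 of them were tested. Of these, 0 passed between the genotypes in any medium by edgeR or by DESeq2. Summed per mouse 0 of 50 tested passed by either tool, and 1, *Sat1*, had an unadjusted p under 0.05, beside 4.14% of all genes by edgeR. The median log2 fold change of the lists' genes was -0.026, beside -0.00059 for all genes. With Ac-LDL over both genotypes 1 of 49 genes passed, lower, a share near the 2% of all genes, and the median was 0.00072 beside -0.0064 for all genes. With Ox-LDL over both genotypes 0 passed by either tool, beside 5.39% of all genes called by edgeR. At an unadjusted p under 0.05 there were 9 of 49 by edgeR and 5 by DESeq2, beside 16.6% and 13.1% of all genes, and the median was -0.022 beside 0.010.

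The gene that passed was *Slc7a11*, the light chain that imports cystine with Slc3a2. In control medium it was at 16.7, 5.58 and 17.5 CPM in WT and at 35.6, 17.3 and 11.6 CPM in KO. With Ac-LDL it was at 8.54, 6.65 and 1.36 CPM in WT and at 4.73, 3.33 and 5.798 CPM in KO. The WT libraries overlapped and the KO libraries did not, where 9.37% of all genes were lower with Ac-LDL in KO without overlap. Over both genotypes the log2 fold change was -1.76 (SE 0.43, adjusted p = 0.0250 by edgeR). The adjusted p ranged up to 0.106 when 1 library was left out, with 7 of 12 such fits below the threshold. With Ox-LDL it was at 32.3, 12.3 and 13.7 CPM in WT and at 26.9, 11.6 and 8.09 CPM in KO, which overlapped the controls.

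In the other 5 lists no gene passed in any comparison by edgeR. Their genes with the highest CPM, not scaled by length, were *Slc38a9*, the lysosomal arginine sensor (mean 63.3 CPM), *Oat*, ornithine aminotransferase (63.7 CPM), *Eif5a*, the protein that carries hypusine made from spermidine (249 CPM), *Qdpr*, which regenerates the cofactor tetrahydrobiopterin (42.5 CPM), and *Rars*, the arginyl-tRNA synthetase (51.4 CPM). Per kilobase of exons, the lysosomal carrier *Pqlc2* (4.43 CPM per kb) came above *Slc38a9* (3.79), and the other 4 kept their place. Of the light chains of Slc3a2, *Slc7a8* (LAT2), named after its values were seen, was at a mean of 48.8 CPM per kb, beside 4.42 for *Slc7a7*, 3.46 for *Slc7a6*, 2.11 for *Slc7a5* and 0.956 for *Slc7a11*.

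Over the 9 WT libraries, the genes whose log2 CPM most resembled *Slc7a7*, of 9817 with a mean of at least 5 CPM, were *Sox4* (Pearson's r = 0.976), *Mylip* (0.951), *Stambpl1* (0.944), *Ninl* (0.923) and *Saraf* (0.918). Like *Slc7a7*, each had its lowest group mean in control medium and its highest with Ox-LDL, as *Mylip*, a ubiquitin ligase for the LDL receptor, with 50.8, 95.1 and 119 CPM. Because they were picked for likeness over the same libraries, this shared order is largely built in by the choice and is no separate result. Among the members, r was 0.28 for *Slc7a6*, -0.38 for *Slc3a2* and -0.67 for *Ass1*. Of all these genes, 80 reached an r of 0.8. The points share 3 mice and 3 media, so these values are a description of the 9 libraries.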

How the data were processed

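Total RNA was extracted from the cultures with a column kit, and stranded total RNA libraries were made with a low-input kit and sequenced single-end. Reads had been trimmed (Trim Galore) and mapped to mm10 (STAR, run by nf-core) by the authors. Estimated counts per gene from salmon were deposited, without normalization. The strand setting of the counting is not given in the sources used here. All columns were those of the 18 samples (0 others), and of 31053 genes listed 22179 had at least 1 count after rounding.

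Rounded counts were filtered (filterByExpr, minimum count 2, minimum total 10; 12290 genes left), scaled by TMM and fitted over 6 groups with edgeR 4.0.16 in R 4.3.3 (quasi-likelihood, 12 residual degrees of freedom). This fit holds no term for the mouse, so it treats the libraries of a mouse as independent. Genotypes over all media were compared on counts summed per mouse (12673 genes, 4 residual degrees of freedom). Benjamini-Hochberg adjustment ran over every gene in a fit, calls were made at an adjusted p under 0.05, and SEs were taken from the F statistic. Exact permutation tests were two-sided. The log2 CPM have a prior count of 2. Lengths, overlaps and shared words are from GENCODE annotation of GRCm38, and windows from RefSeq. Intervals of fold changes come from these fits and include the spread between libraries or mice, whereas the limit that a count of 0 allows covers counting error only. The procedure was tested on simulated data. Figures were drawn with matplotlib 3.10.9.

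Members, gene lists and tests were chosen with earlier results of these data known. All members were named, and from each list the genes that passed or, where none did, the one with the highest mean CPM. *Sat1*, *Slc7a8* and *Pqlc2* were named outside this rule. Replicate numbers name a mouse within a genotype, as the column labels carry the same ID for a replicate in each medium. Deviations from the group means correlated by 0.0931 to 0.482 between libraries of a mouse (17 of 18 pairs over 0.1) and by -0.436 to 0.0791 between mice. The deviations within a group sum to 0, which by itself pushes the values between mice below 0. Alternatives were DESeq2 1.42.0, scaling by library size, the stricter preset of filterByExpr (10004 genes), no filter, fits of the compared libraries alone, a replicate block, and each library or mouse left out. The block was the mouse for LDL comparisons and the replicate number for genotypes within a medium. For genotypes over all media, the libraries were fitted apart with the mouse as a random block.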

Additional observations from a re-analysis of the deposited data

How the results depend on the processing

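The number of members called was 1 rather than 0 for KO against WT with Ox-LDL without a filter (*Slc7a7*), for Ac-LDL in WT without a filter and with the replicate block, and for Ac-LDL in KO without a filter, with the compared libraries alone and with the replicate block (*Ass1*). It was 0 rather than 1 for Ox-LDL in WT with the compared libraries alone, and 2 rather than 1 for Ox-LDL over both genotypes with scaling by library size and with the replicate block, which pairs the libraries of a mouse (*Slc7a7* beside *Ass1*). For genotypes within a medium, the block was instead the replicate number, which joins a WT and a KO mouse of the same number. The block changed no other count of members called. Over both genotypes, 719 genes were called for Ac-LDL with the block and 246 without it. For Ox-LDL these were 1393 and 662 genes. Leaving out 1 library or mouse gave 0 to 1 members for Ox-LDL in WT, Ox-LDL in KO and the genotype comparison summed per mouse, and 1 to 2 for Ox-LDL over both genotypes. The causes were not tested. The percentages by which *Slc7a7* was lower in KO kept their direction in each setting tried.

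Fold changes that changed sign did so when 1 library or mouse was left out. None of them was called, and some of their ranges are wide. With Ac-LDL over both genotypes they ranged from -0.38 to 0.12 for *Slc7a7*, from -0.12 to 0.15 for *Slc7a6* and from -0.16 to 0.17 for *Slc7a1*. With Ox-LDL they ranged from -0.096 to 0.24 for *Slc7a1* and from -0.59 to 0.059 for *Slc7a2*. For the genotype comparison summed per mouse they ranged from -0.11 to 0.24 for *Slc7a6* and from -0.13 to 0.34 for *Ass1*. The genotype difference in the response ranged from -0.14 to 0.32 for *Ass1* with Ac-LDL, from -0.096 to 0.55 for *Ass1* with Ox-LDL and from -0.64 to 0.17 for *Slc7a7* with Ox-LDL. *Slc7a7* in KO and *Slc7a2* rest on few counts, and the arginases and *Nos2* could not be compared at this depth.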
